A study of Sus scrofa with 32 samples.

Results

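The motile cilia genes described here are 40 genes chosen by name for their known part in building or beating motile cilia, and all 40 were found by pig gene symbol among the 30185 genes of the count tables. They comprise 6 regulators, 5 genes of the outer and 6 of the inner dynein arms, 4 of the radial spokes, 7 of the central pair, 9 encoding axonemal attachment and doublet proteins, and 3 others for assembly or still other ciliary roles. RNA-seq counts were available for endometrium of 8 prepuberal gilts on Day 14, of which 4 were pregnant and 4 nonpregnant (called cyclic). Pregnant gilts had been inseminated with semen and cyclic gilts with semen supernatant from the same boar, and the estrus of all animals had been synchronized with eCG and hCG. In pregnant gilts the tissue came from hyperemic zones, from which the conceptus had been removed, so the groups also differ in how the site was chosen. The glandular epithelium (GE), the epithelium of the lumen (LE), stroma (S) and blood vessels (BV) were cut from frozen, stained sections by laser capture, with 1 library per gilt and compartment. Gilts are named here by C (cyclic) or P (pregnant) and their number. Of P41 the glandular sample was not analysed, which left 31 libraries with n = 3 in pregnant GE and n = 4 in each other group. A capture is a piece of tissue and can hold cells of several kinds.

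Motile cilia are hair-like projections that beat and move fluid over an epithelium. Each is built around an axoneme of microtubule doublets and a central pair, and the beat is driven by dynein arms on the doublets, coordinated by radial spokes and the central pair. Cells with many motile cilia are switched on by MCIDAS, CCNO, MYB, RFX factors and FOXJ1, and in the uterus they lie among the secretory cells of the epithelium.

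RNA of these genes was found mainly in GE. Of the 40 genes, 39 had their highest mean level in GE, and the exception was TPPP3, whose highest mean was in S. Summed over the 40 genes, levels in CPM (counts relative to library size, with TMM scaling over the 31 libraries) were 1709, 1942, 2882 and 3429 in GE of cyclic gilts C40, C42, C78 and C128 and 2931, 1443 and 4241 in GE of pregnant gilts P39, P43 and P139. In LE the sums were 338, 391, 721 and 441 CPM in cyclic gilts and 254, 255, 270 and 644 CPM in pregnant gilts P39, P41, P43 and P139. Every GE library was above every LE library, and within the 7 gilts with both epithelia the sum was 4.00 to 11.5 times higher in GE. BV held 264, 174, 153 and 308 CPM in cyclic and 506, 328, 267 and 699 CPM in pregnant gilts, and S held 298, 354, 328 and 370 CPM in cyclic and 367, 571, 290 and 181 CPM in pregnant gilts. LE, BV and S overlapped in this sum. HYDIN, with 16144 annotated exon bases, made up 14.8% of the mean sum in GE. Per kilobase of exons it ranked 3 of the 40 genes in GE.

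**Figure D1:**
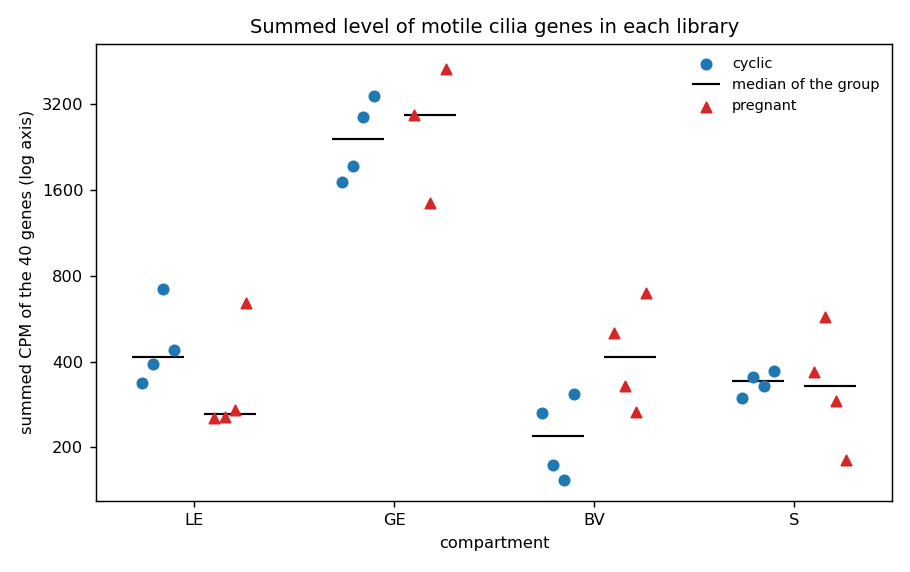
Summed CPM of the 40 motile cilia genes (log axis) in each of 31 libraries, by compartment, with cyclic gilts as circles, pregnant gilts as triangles and the group median as a bar. The GE libraries, from 1443 to 4241 CPM, lie above all libraries of LE, BV and S, which overlap one another.

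Captures differed in purity as well as in tissue. Library totals were 2415216 to 7081556 counts, and 3 counts over a group correspond to 0.173 to 0.279 CPM, an amount that covers counting error only. The summed level of 10 epithelial markers was 2423 to 3413 CPM in LE and 1644 to 2067 CPM in GE, against 3.67 to 332 CPM in BV and 11.2 to 482 CPM in S, and none of the 10 was at 0 in any compartment. Endothelial markers (8 genes) summed to 1532 to 3030 CPM in BV and to 15.7 to 178 CPM in GE, smooth muscle markers (8 genes) to 1202 to 18484 CPM in BV and 28.6 to 194 CPM in GE, and fibroblast markers (8 genes) to 37127 to 106816 CPM in S and 2902 to 7537 CPM in GE. Leukocyte markers (10 genes) summed to 182 to 567 CPM in S and 19.7 to 76.2 CPM in GE, where MS4A1 was at 0. LE held 125 to 1020 CPM of endothelial, 198 to 494 CPM of smooth muscle and 4142 to 16687 CPM of fibroblast markers. Its leukocyte markers summed to 42.8 to 160 CPM. Each of these sums had a higher mean in LE than in GE, and their part in the differences between GE and LE was not tested. Of 10 sperm and spermatid markers, PRM1, PRM2, TNP1, ODF1, SMCP and ACRV1 were at 0 in all 4 compartments, and the 10 summed to 0 to 9.66 CPM in any library. In bulk captures like these, fewer ciliated cells and less RNA per ciliated cell cannot be told apart. The libraries that stood apart in the motile cilia genes were LE of pregnant gilt P139, with a sum above the 3 other pregnant LE libraries, and S of pregnant gilt P41, which was the highest S library for 25 of 37 genes.

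The authors' filtered tables kept 37 of the 40 genes in GE, 23 in LE, 17 in BV and 15 in S. All 4 tables held 15 genes, only that of GE held 14, and no table held CCNO, MCIDAS and PIFO. A gene that entered through GE alone had to be high there, so the main counts between compartments are also given for the 15 genes. Between GE and LE, 37 of the 37 tested genes were higher in GE at a false discovery rate of 1% in a fit over all 31 libraries with the gilt as a block, where 15.5% of 13887 tested genes were called higher. Among the 15 genes of all 4 tables, 15 were higher. With no filter on low counts, 37 of 40 were called, against 10.7% of 24582 genes. The median difference was 3.22 on the log2 scale, against -0.13 for all genes tested, and single genes ranged from 1.04 for CCDC39 to 4.46 for RSPH4A. Every GE library exceeded every LE library for 30 of the 40 genes and 11 of the 15, against 5.08% of the genes tested. Each of the 7 gilts with both epithelia had the higher level in GE for 36 of the 40 and 14 of the 15, against 13.2% of the genes tested.

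**Figure D2:**
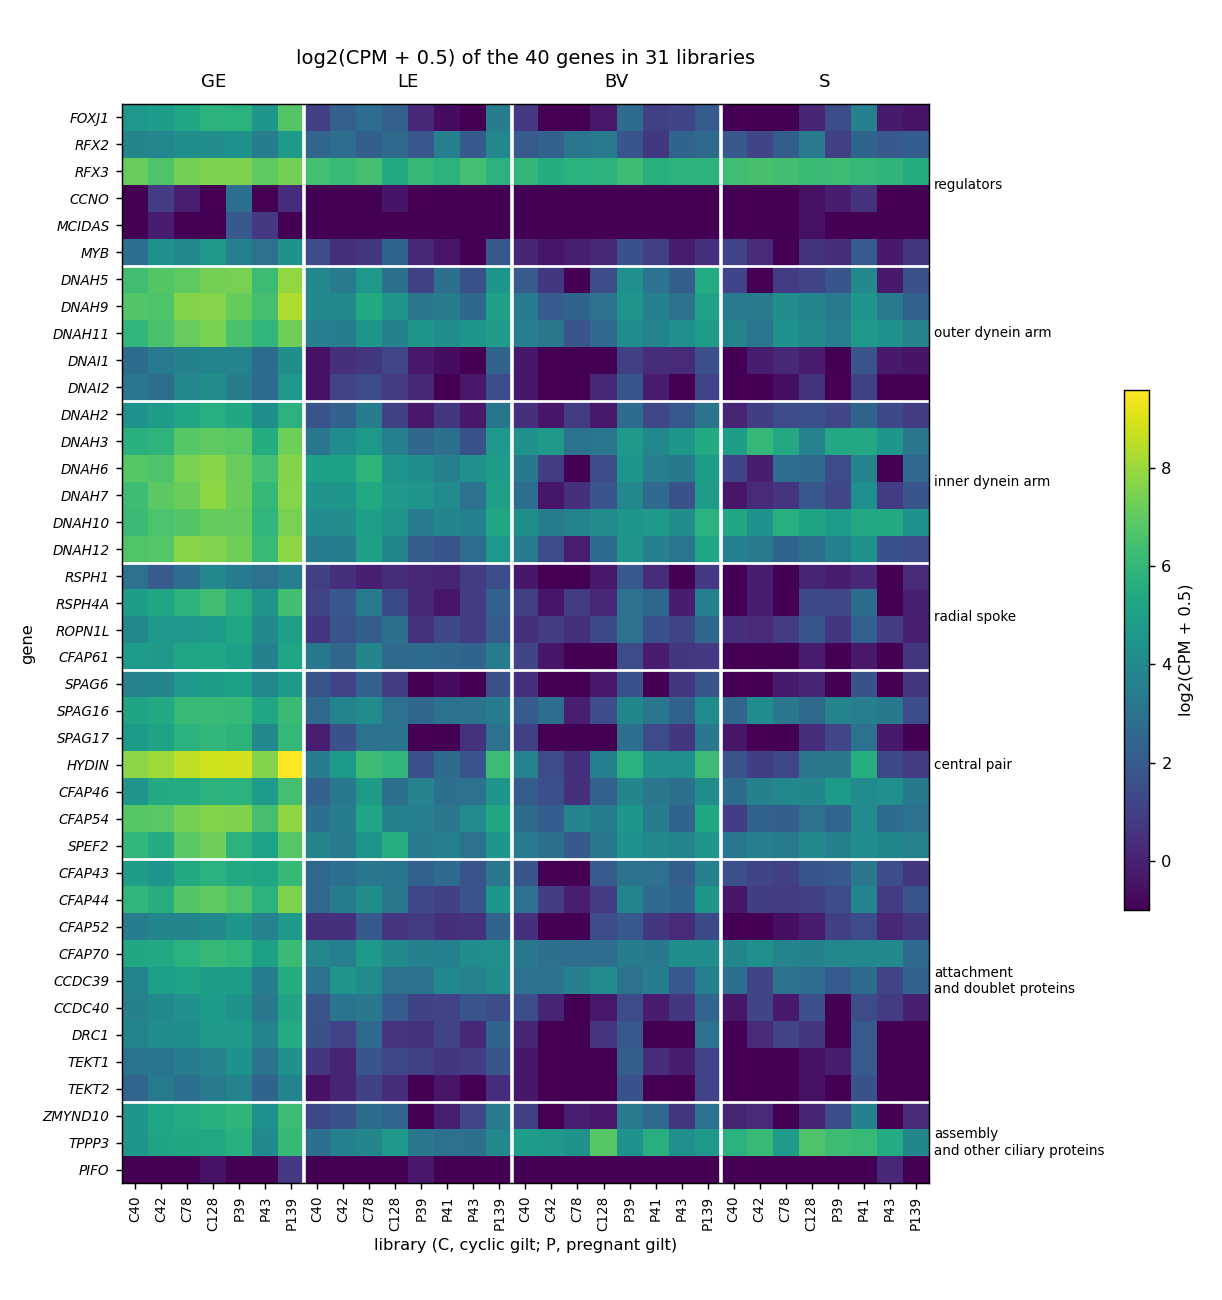
log2(CPM + 0.5) of the 40 genes (rows, by role) in 31 libraries (columns, by compartment, with the gilt's name, C for cyclic and P for pregnant). The 7 GE columns are the brightest for nearly every row, TPPP3 is bright in S and BV as well, and CCNO, MCIDAS and PIFO are dark in nearly all libraries.

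Upstream sequence is shown for genes whose promoters carried the letters that RFX factors bind, since RFX2 and RFX3 are members themselves. Windows of 250 bases before the annotated start were read from Sscrofa11.1 for 39 of the 40 genes and for 20643 genes in all. An X-box (the letters GTNNCC, any 3 bases, then GNAAC), searched on both strands, was in the windows of CCNO and SPAG17, 2 of 39 genes against 1.40% of all windows. Its 14 bases, in capitals, were as follows on the strand of the gene. The CCNO match lies at -227 to -214 from the start and that of SPAG17 at -113 to -100.
CCNO: GTTGCCCAGGTAAC
SPAG17: GTTGCCTTGGCAAC
The shorter motif GTTGCC, which overlaps the X-box, was in 15 of 39 windows (RFX2, CCNO, DNAH5, DNAI1, DNAH2, DNAH6, CFAP61, SPAG6, SPAG16, SPAG17, HYDIN, CFAP54, SPEF2, CFAP43 and ZMYND10), against 11.0% of all windows. The forkhead core GTAAACA, the kind of site that FOXJ1 binds, was in 2 of 39 windows (MYB and CFAP43), against 2.31% of all. ROPN1L, DNAH9 and DNAH10, the genes with the smallest adjusted p between GE and LE, had none of the 3 motifs in their windows.

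The windows of SPAG17 (chr4:102596215-102596464, plus strand) and CFAP54 (chr5:87102622-87102871, minus strand), both upstream of the annotated transcript, are printed with matches in capitals. CFAP54, the fourth by adjusted p, had 3 matches to GTTGCC near its start, and SPAG17 was chosen after its matches had been seen. The CFAP54 matches at -28 to -23 and -21 to -16 face each other at a spacing outside the searched form of the X-box.
SPAG17: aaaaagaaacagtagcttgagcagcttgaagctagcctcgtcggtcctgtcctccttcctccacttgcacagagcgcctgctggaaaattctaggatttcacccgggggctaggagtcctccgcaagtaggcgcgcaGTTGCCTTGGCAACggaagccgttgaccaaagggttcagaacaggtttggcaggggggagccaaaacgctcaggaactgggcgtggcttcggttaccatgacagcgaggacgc
CFAP54: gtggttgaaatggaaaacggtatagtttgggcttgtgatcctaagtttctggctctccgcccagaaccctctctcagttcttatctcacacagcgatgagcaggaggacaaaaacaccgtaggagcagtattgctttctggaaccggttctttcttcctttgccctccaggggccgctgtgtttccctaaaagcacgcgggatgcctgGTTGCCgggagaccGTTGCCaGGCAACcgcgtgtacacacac
A match describes these letters in the annotated window and was not tested as a site of binding.

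FOXJ1, the forkhead factor that commits cells to motile cilia, was present in every GE library and sparse elsewhere. It measured 24.3, 29.2, 36.7 and 56.3 CPM in cyclic and 54.3, 23.2 and 106 CPM in pregnant GE, in the order of gilts given above. Its LE levels were 1.52, 4.26, 6.57 and 4.26 CPM in cyclic and 0.634, 0.142, 0 and 10.5 CPM in pregnant LE, with no count in pregnant gilt P43. GE and LE did not overlap, and the difference was 4.01 (SE 0.61, adjusted p = 1.26e-05) on the log2 scale, where adjusted p here and below is edgeR's quasi-likelihood test with Benjamini-Hochberg adjustment over all genes tested. BV held 1.19, 0, 0 and 0.334 CPM in cyclic and 6.03, 1.52, 1.84 and 3.78 CPM in pregnant BV, and S held 0, 0, 0 and 0.576 CPM in cyclic and 2.26, 11.7, 0.338 and 0.233 CPM in pregnant S. The highest S library, pregnant gilt P41, was above the highest LE library. Without gilt P139, whose LE held the most FOXJ1, the difference between GE and LE was 5.57 (adjusted p = 4.45e-07).

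RFX3, a factor that other tissues use as well, was present at overlapping levels in LE, BV and S. It measured 138, 103, 160.4 and 181 CPM in cyclic and 188, 124 and 165 CPM in pregnant GE, against 85.5, 72.5, 85.6 and 43.4 CPM in cyclic and 65.3, 55.8, 85.1 and 54.2 CPM in pregnant LE. It ranged over 46.6 to 75.0 CPM in BV and 47.0 to 89.3 CPM in S, and its difference between GE and LE was 1.14 (SE 0.15, adjusted p = 2.68e-06), among the smallest of the genes. RFX2, its paralog, measured 13.8, 14.5, 18.8 and 18.1 CPM in cyclic and 20.6, 10.7 and 26.6 CPM in pregnant GE, against 5.0, 6.54, 4.08 and 5.86 CPM in cyclic and 3.17, 11.7, 3.51 and 15.1 CPM in pregnant LE. GE and LE overlapped through LE of pregnant gilts P41 and P139, and the difference was 1.49 (SE 0.31, adjusted p = 0.000401). RFX2 ranged over 1.14 to 9.70 CPM in BV and 1.51 to 9.99 CPM in S. MYB, which acts early in multiciliated cells and in many dividing cells, measured 6.89, 20.7, 15 and 26.2 CPM in cyclic and 11.2, 7.15 and 21.1 CPM in pregnant GE, against 2.18, 0.852, 1.13 and 4.79 CPM in cyclic and 0.634, 0.285, 0 and 3.32 CPM in pregnant LE. Its difference was 3.51 (SE 0.48, adjusted p = 4.28e-06), with 0.283 to 2.64 CPM in BV and 0 to 3.58 CPM in S.

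CCNO and MCIDAS, which act in the multiplication of centrioles, were close to the limit of detection and are neighbours on chromosome 16. In GE, CCNO had 0, 7, 2 and 0 counts in cyclic gilts C40, C42, C78 and C128 and 26, 0 and 4 counts in pregnant gilts P39, P43 and P139. MCIDAS had 0, 2, 0 and 0 counts in the same cyclic and 13, 4 and 0 counts in the same pregnant gilts, and it had 0 counts in all LE and BV libraries. Pregnant gilt P39 held the most of both, 6.78 CPM of CCNO and 3.39 CPM of MCIDAS, although its FOXJ1 level of 54.3 CPM was within the range of the other GE libraries. With no filter on low counts, the difference between GE and LE narrowly missed the 1% threshold for CCNO, at 4.71 (SE 1.27, adjusted p = 0.0111) on the log2 scale, a value that rests on 39 counts in 4 GE libraries and 1 count in LE. MCIDAS was not called (adjusted p = 0.152). PIFO, a protein of the ciliary base, was as low, with 1 count in GE of cyclic gilt C128, 6 counts in GE of pregnant gilt P139 and none in the other GE libraries. DEUP1, a gene of centriole multiplication outside the 40, was higher, at 11.0 to 31.1 CPM in GE against 1.42 to 5.37 CPM in LE.

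The outer dynein arms, which give the beat most of its power, were represented by 3 heavy chains and 2 intermediate chains, and all 5 were higher in GE. DNAH5 measured 79.9, 107, 123 and 164 CPM in cyclic and 168, 75.3 and 234 CPM in pregnant GE, against 14.8, 9.38, 24.9 and 6.92 CPM in cyclic and 1.58, 7.11, 2.55 and 23.0 CPM in pregnant LE. The lowest GE library was 3.02 times the highest LE library, and the difference was 3.94 (SE 0.47, adjusted p = 6.38e-07). DNAH9 measured 109, 102, 195 and 202 CPM in cyclic and 134, 86.9 and 308 CPM in pregnant GE, against 14.8, 15.6, 43.9 and 21.8 CPM in cyclic and 8.56, 10.4, 5.42 and 32.7 CPM in pregnant LE. It differed by 3.22 (SE 0.32, adjusted p = 7.11e-08) without overlap. DNAH11 measured 62.5, 92.4, 139.3 and 175 CPM in cyclic and 91.9, 62.8 and 158 CPM in pregnant GE, against 11.7, 10.8, 23.1 and 12.2 CPM in cyclic and 24.1, 19.1, 23.0 and 27.9 CPM in pregnant LE. Its difference was 2.55 (SE 0.28, adjusted p = 2.25e-07), and its mean level in LE was 17.0% and in S 14.3% of that in GE. The intermediate chain DNAI1 measured 6.20, 9.46, 12 and 13.3 CPM in cyclic and 12.8, 6.25 and 18.4 CPM in pregnant GE, against 0.218, 0.852, 1.13 and 1.86 CPM in cyclic and 0.317, 0.142, 0 and 4.60 CPM in pregnant LE. DNAI2 measured 8.50, 6.64, 14.4 and 18.1 CPM in cyclic and 10.7, 5.95 and 24.5 CPM in pregnant GE, against 0.218, 1.70, 2.26 and 1.33 CPM in cyclic and 0.634, 0, 0.319 and 2.30 CPM in pregnant LE. The differences of the intermediate chains were 3.59 (SE 0.55, adjusted p = 1.31e-05) for DNAI1 and 3.64 (SE 0.59, adjusted p = 2.85e-05) for DNAI2, and neither overlapped.

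In BV and S the outer arm genes were at 0 to 45.8 CPM in BV and 0 to 15.3 CPM in S for DNAH5, 3.67 to 33.6 CPM in BV and 4.42 to 23.5 CPM in S for DNAH9 and 2.96 to 28.6 CPM in BV and 8.35 to 25.4 CPM in S for DNAH11. DNAI1 and DNAI2 were at 0 in 3 and 2 of the 4 cyclic BV libraries. DNAI1 reached 2.93 CPM and DNAI2 1.63 CPM in S of pregnant gilt P41, their highest S library.

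The inner arm heavy chains, which shape the bend, were all 6 higher in GE, by 2.42 (SE 0.44, adjusted p = 8.95e-05) for DNAH6 to 3.65 (SE 0.48, adjusted p = 2.32e-06) for DNAH12. DNAH2 measured 20.9, 28.0, 36.7 and 49.0 CPM in cyclic and 40.7, 18.8 and 54.4 CPM in pregnant GE, against 2.83, 4.55, 10.9 and 1.60 CPM in cyclic and 0.317, 1.14, 0.319 and 8.18 CPM in pregnant LE. Its difference was 3.48 (SE 0.42, adjusted p = 7.87e-07). DNAH12 measured 105, 110.5, 208 and 189 CPM in cyclic and 154, 71.2 and 221 CPM in pregnant GE, against 10.7, 10.5, 32.6 and 13.8 CPM in cyclic and 3.80, 2.99, 6.38 and 24.3 CPM in pregnant LE, with a gap between the lowest GE and the highest LE library. DNAH6 measured 115, 103, 172 and 209 CPM in cyclic and 139.6, 84.3 and 198 CPM in pregnant GE, against 32.6, 31.8, 58.2 and 21.8 CPM in cyclic and 18.7, 11.7, 20.1 and 29.1 CPM in pregnant LE. Both epithelia held more DNAH6 than S, with 2.65 (SE 0.49, adjusted p = 9.03e-05) for LE against S. DNAH7 measured 79.5, 122, 149 and 220.1 CPM in cyclic and 149, 65.5 and 204 CPM in pregnant GE, against 22.6, 23.9, 42.3 and 26.4 CPM in cyclic and 21.9, 16.8, 7.33 and 31.2 CPM in pregnant LE. Its differences were 2.67 (SE 0.40, adjusted p = 1.26e-05) for GE against LE and 3.08 (SE 0.48, adjusted p = 1.41e-05) for LE against S.

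DNAH3 and DNAH10, also of the inner arm, were present in S above their level in LE. DNAH3 measured 52.8, 58.6, 113 and 123 CPM in cyclic and 117, 47.0 and 151 CPM in pregnant GE, against 8.49, 17.3, 24.9 and 11.4 CPM in cyclic and 5.07, 6.97, 2.55 and 24.3 CPM in pregnant LE, and S held 29.9, 66.4, 41 and 12.3 CPM in cyclic and 41.9, 41.1, 23.7 and 8.61 CPM in pregnant S. DNAH3 was lower in LE than in S, with a difference of -1.53 (SE 0.42, adjusted p = 0.00380). DNAH10 measured 74.2, 95.6, 108 and 135 CPM in cyclic and 133, 61.9 and 169 CPM in pregnant GE, against 16.8, 18.2, 30.6 and 21.6 CPM in cyclic and 9.51, 13.8, 11.5 and 39.4 CPM in pregnant LE, and S held 39.9, 20.3, 49.7 and 36.1 CPM in cyclic and 27.5, 41.1, 43.3 and 20.5 CPM in pregnant S. It too was lower in LE, with a difference of -0.91 (SE 0.25, adjusted p = 0.00367), and both genes were higher in GE than in LE, by 3.02 (SE 0.44, adjusted p = 7.14e-06) and 2.52 (SE 0.26, adjusted p = 1.25e-07). The mean level in S was 35.0% of that in GE for DNAH3 and 31.4% for DNAH10, against a median of 5.50% over 37 genes.

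The radial spokes pass signals from the central pair to the dyneins, and their 4 genes were higher in GE. RSPH4A, a spoke head protein, measured 29.9, 36.4, 57.2 and 80.8 CPM in cyclic and 49.3, 22.6 and 82.8 CPM in pregnant GE, against 1.74, 3.13, 9.51 and 2.13 CPM in cyclic and 0.634, 0.285, 1.28 and 4.35 CPM in pregnant LE. Its difference of 4.46 (SE 0.53, adjusted p = 7.18e-07) was the largest of the 37, and its mean level in LE was 5.62% of that in GE. RSPH1, another head protein, measured 7.35, 3.62, 6.54 and 14.4 CPM in cyclic and 9.92, 7.44 and 11.6 CPM in pregnant GE, against 1.52, 0.852, 0.453 and 0.798 CPM in cyclic and 0.634, 0.569, 1.28 and 2.30 CPM in pregnant LE. It differed by 2.95 (SE 0.44, adjusted p = 1.15e-05). ROPN1L, a spoke protein, measured 14.9, 24.8, 24.3 and 27.7 CPM in cyclic and 37.6, 15.5 and 31.3 CPM in pregnant GE, against 1.09, 2.84, 4.08 and 6.92 CPM in cyclic and 0.951, 1.99, 1.28 and 3.58 CPM in pregnant LE, and its difference of 3.34 (SE 0.32, adjusted p = 4.28e-08) had the smallest adjusted p.

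CFAP61, a protein of the spoke base, was nearly absent from S and BV. It measured 27.3, 25.2, 38.0 and 38.3 CPM in cyclic and 31.1, 11.9 and 38.0 CPM in pregnant GE, against 9.36, 5.11, 14.0 and 5.86 CPM in cyclic and 6.02, 5.41, 4.78 and 9.46 CPM in pregnant LE, while BV held 1.79, 0.283, 0 and 0 CPM in cyclic and 2.26, 0.381, 1.11 and 1.26 CPM in pregnant BV and S held 0, 0, 0 and 0.384 CPM in cyclic and 0, 0.326, 0 and 1.16 CPM in pregnant S. LE was above S by 4.90 (SE 0.51, adjusted p = 7.03e-08) and GE above LE by 1.90 (SE 0.33, adjusted p = 6.14e-05), with overlap through LE of cyclic gilt C78. Its mean level in S, 0.782% of that in GE, was the lowest share of the 37 genes.

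Central pair genes were all 7 higher in GE. HYDIN, a large projection protein, measured 212, 266, 383 and 451 CPM in cyclic and 463, 196 and 769.9 CPM in pregnant GE, against 10.7, 26.7, 75.6 and 61.8 CPM in cyclic and 2.54, 6.26, 2.87 and 77.2 CPM in pregnant LE. LE levels ran from 2.54 to 77.2 CPM, and the 3 pregnant LE libraries other than that of gilt P139 were the lowest. HYDIN differed by 4.09 (SE 0.64, adjusted p = 2.02e-05) between GE and LE. CFAP54 measured 116, 119, 165 and 199 CPM in cyclic and 188, 88.4 and 228 CPM in pregnant GE, against 6.74, 10.8, 36.7 and 12.2 CPM in cyclic and 11, 8.68, 16.6 and 40.7 CPM in pregnant LE. Its differences were 3.25 (SE 0.34, adjusted p = 1.47e-07) for GE against LE and 1.40 (SE 0.36, adjusted p = 0.00226) for LE against S. SPAG6 measured 12.6, 13.9, 24.7 and 30.3 CPM in cyclic and 31.8, 14.9 and 26.4 CPM in pregnant GE, against 2.83, 1.70, 4.53 and 1.33 CPM in cyclic and 0, 0.142, 0 and 2.56 CPM in pregnant LE, and SPAG6 differed by 4.15 (SE 0.56, adjusted p = 3.35e-06). SPAG17 measured 26.4, 33.8, 53.2 and 63.4 CPM in cyclic and 56.9, 15.2 and 65.2 CPM in pregnant GE, against 0.435, 2.56, 7.47 and 7.98 CPM in cyclic and 0, 0, 0.957 and 7.16 CPM in pregnant LE, and it differed by 4.11 (SE 0.65, adjusted p = 2.05e-05).

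SPAG16 measured 36.3, 44.3, 70.1 and 72.9 CPM in cyclic and 67.1, 37.8 and 74.6 CPM in pregnant GE, against 5.87, 13.1, 16.5 and 7.45 CPM in cyclic and 5.07, 7.54, 7.97 and 10.7 CPM in pregnant LE. Its difference was 2.67 (SE 0.35, adjusted p = 2.00e-06), with 0.423 to 16.8 CPM in BV and 2.33 to 17.1 CPM in S. CFAP46 measured 22.7, 43.7, 45.8 and 55.0 CPM in cyclic and 53.2, 27.4 and 88.3 CPM in pregnant GE, against 4.57, 9.09, 26.7 and 6.92 CPM in cyclic and 12.4, 6.97, 7.33 and 23.3 CPM in pregnant LE, and SPEF2 measured 63.4, 45.7, 119 and 150.0 CPM in cyclic and 54.8, 33.6 and 109.9 CPM in pregnant GE, against 13.5, 9.66, 22 and 48.4 CPM in cyclic and 10.1, 11.4, 7.33 and 24.0 CPM in pregnant LE. Both overlapped between GE and LE, through LE of cyclic gilt C78 and pregnant gilt P139 for CFAP46 and of cyclic gilt C128 for SPEF2. They differed by 1.99 (SE 0.31, adjusted p = 1.75e-05) and 2.19 (SE 0.25, adjusted p = 3.51e-07).

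The attachment and doublet proteins tie dyneins to the doublets or strengthen the doublet wall, and all 9 genes were higher in GE. CFAP44, which with CFAP43 tethers an inner dynein, measured 62.9, 47.5, 109 and 129 CPM in cyclic and 100.2, 56.0 and 179.6 CPM in pregnant GE, against 5.66, 10.8, 18.3 and 9.05 CPM in cyclic and 1.90, 1.57, 2.87 and 23.8 CPM in pregnant LE. CFAP43 measured 30.3, 23.3, 42.2 and 54.2 CPM in cyclic and 42.8, 38.4 and 67.6 CPM in pregnant GE, against 5.66, 6.82, 8.83 and 8.25 CPM in cyclic and 4.44, 5.98, 2.87 and 8.44 CPM in pregnant LE. They differed by 3.63 (SE 0.48, adjusted p = 2.50e-06) and 2.84 (SE 0.33, adjusted p = 6.38e-07) and did not overlap. CFAP52, inside the doublet wall, measured 10.6, 13.9, 13.7 and 16.1 CPM in cyclic and 24.0, 12.5 and 25.1 CPM in pregnant GE, against 0.870, 0.852, 3.40 and 1.06 CPM in cyclic and 1.27, 0.854, 0.957 and 4.60 CPM in pregnant LE, with a difference of 3.31 (SE 0.41, adjusted p = 1.10e-06). DRC1, of the nexin-dynein regulatory complex, measured 13.3, 17.9, 19.0 and 26.2 CPM in cyclic and 26.1, 12.8 and 45.8 CPM in pregnant GE, against 2.61, 1.70, 5.66 and 1.06 CPM in cyclic and 0.951, 1.71, 0.638 and 4.60 CPM in pregnant LE. Its difference was 3.50 (SE 0.58, adjusted p = 3.54e-05).

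The tektins, filament proteins of the doublet, were low in level, and TEKT2 was steep in difference. TEKT1 measured 7.81, 8.25, 10.6 and 12.5 CPM in cyclic and 20.4, 8.04 and 20.2 CPM in pregnant GE, against 1.09, 0.568, 2.94 and 1.86 CPM in cyclic and 1.58, 1.14, 1.28 and 3.07 CPM in pregnant LE. TEKT2 measured 5.05, 9.66, 6.75 and 10.1 CPM in cyclic and 12.8, 4.76 and 13.1 CPM in pregnant GE, against 0.218, 0.568, 1.58 and 0.798 CPM in cyclic and 0, 0.285, 0 and 0.767 CPM in pregnant LE. They differed by 2.99 (SE 0.48, adjusted p = 2.25e-05) and 4.43 (SE 0.64, adjusted p = 8.03e-06), and TEKT2 in LE came to at most 1.58 CPM. CFAP70, linked to the outer arm, measured 40.7, 41.1, 53.8 and 68.8 CPM in cyclic and 62.9, 31.6 and 74.8 CPM in pregnant GE, against 14.4, 11.4, 25.1 and 16.0 CPM in cyclic and 12, 11.4, 17.9 and 19.2 CPM in pregnant LE. It was present in BV and S too, with 6.34 to 18.8 CPM in BV and 5.58 to 19.2 CPM in S, and its difference was 1.73 (SE 0.25, adjusted p = 6.88e-06).

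CCDC39 and CCDC40 form the ruler that sets the spacing of the dyneins. Both were higher in GE, with a smaller fitted difference for CCDC39, and they were not tested against each other. CCDC39 measured 12.9, 31.2, 34.0 and 29.7 CPM in cyclic and 29.0, 10.4 and 46.0 CPM in pregnant GE, against 7.61, 22.2, 16.5 and 7.45 CPM in cyclic and 7.92, 15.1, 12.4 and 16.9 CPM in pregnant LE. Its difference of 1.04 (SE 0.28, adjusted p = 0.00347) was the smallest of the 37, gilt P43 had more in LE than in GE, and without gilt P39 or gilt P139 it came to 0.90 (adjusted p = 0.0283) and 0.98 (adjusted p = 0.0191). CCDC40 measured 11.7, 15.7, 20.3 and 27.1 CPM in cyclic and 20.6, 8.63 and 36.2 CPM in pregnant GE, against 2.83, 7.96, 9.06 and 3.73 CPM in cyclic and 1.58, 1.71, 2.87 and 2.30 CPM in pregnant LE, with a difference of 2.42 (SE 0.48, adjusted p = 0.000253). The mean level of CCDC39 in LE was 48.1% of that in GE. CCDC39 shares 4311 of its 9395 annotated exon bases with TTC14 on the opposite strand, and whether reads were counted by strand is not given in the sources used here. In all, 13 of the 40 genes share exon bases with another gene, 11 of them on the opposite strand. Among these are CFAP44 with BOC (3318 bases), DNAH7 with SLC39A10 (2344) and DNAH11 with CDCA7L (1223). Whether their levels hold reads of the neighbour was not tested.

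ZMYND10, which helps to assemble dynein arms in the cytoplasm, measured 23.9, 38.4, 45.4 and 51.6 CPM in cyclic and 60.5, 20.5 and 76.2 CPM in pregnant GE, against 1.96, 2.56, 6.11 and 5.06 CPM in cyclic and 0, 0.427, 1.91 and 10.2 CPM in pregnant LE. It differed by 3.88 (SE 0.58, adjusted p = 1.09e-05). TPPP3, a tubulin-binding protein that other cells make too, measured 23.9, 35.6, 39.3 and 41.3 CPM in cyclic and 53.0, 15.8 and 68.7 CPM in pregnant GE, against 6.74, 11.4, 13.8 and 25.0 CPM in cyclic and 8.56, 7.54, 7.02 and 14.8 CPM in pregnant LE. BV held 28.9, 26.3, 20.7 and 114 CPM in cyclic and 20.7, 51.4, 19.6 and 24.4 CPM in pregnant BV and S held 53.3, 70.0, 27.4 and 103 CPM in cyclic and 75.1, 71.0, 45.7 and 14.2 CPM in pregnant S. TPPP3 was higher in GE than in LE by 1.88 (SE 0.35, adjusted p = 0.000125) and lower in LE than in S, at -2.30 (SE 0.35, adjusted p = 8.24e-06), and GE against S missed the threshold, at -0.42 (SE 0.34, adjusted p = 0.284). It shares 2058 of its 3220 exon bases with ZDHHC1 on the same strand, so its reads may be split between them.

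Lengths allow a comparison between genes within GE. Per kilobase of annotated exons, mean GE levels were highest for ROPN1L (26.2 ± 8.49 CPM per kb, SD, n = 7), ZMYND10 (25.4 ± 11), HYDIN (24.3 ± 12.3) and FOXJ1 (18.2 ± 11.3). The SD is between gilts. These genes were measured in the same libraries and were not tested against each other. The 11 dynein arm genes had 2.57 to 11.9 CPM per kb, from DNAH2 to DNAH12. CCNO, MCIDAS and PIFO were lowest, with CCNO at 0.559 CPM per kb.

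Set against S, 36 of the 37 tested genes were higher in GE (27.9% of all genes were), TPPP3 being the exception, and 14 of the 15 genes of all 4 tables were. LE stood out far less. Against S, 7 of 37 genes were higher in LE (DNAH5, DNAH6, DNAH7, CFAP61, CFAP54, CCDC39 and TEKT1), against 26.7% of all genes, and 3 were lower (DNAH3, DNAH10 and TPPP3), against 23.9%. Of the 15 genes of all 4 tables, 3 were higher and 3 lower. TEKT1, low in both, differed by 2.64 (SE 0.71, adjusted p = 0.00315), DNAH5 by 2.0 (SE 0.54, adjusted p = 0.00298) and CCDC39 by 1.46 (SE 0.30, adjusted p = 0.000234). This count moved with single gilts. Without S of pregnant gilt P41, a library chosen after the data had been seen, 19 genes were higher and 1 was lower, against 25.9% and 23.1% of all genes. Without gilt P41 altogether 18 were higher, against 25.1%. The genes higher in LE came to 4 without gilt C78 (23.3% of all genes) and to 4 without gilt P139 (25.6%). FOXJ1 differed between LE and S by 1.89 (SE 0.92, adjusted p = 0.0785) and was not called with all libraries. In that S library the epithelial markers summed to 482 CPM, the highest of S, against 11.2 to 293 CPM in the other S libraries, and their part in the result was not tested.

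**Figure D3:**
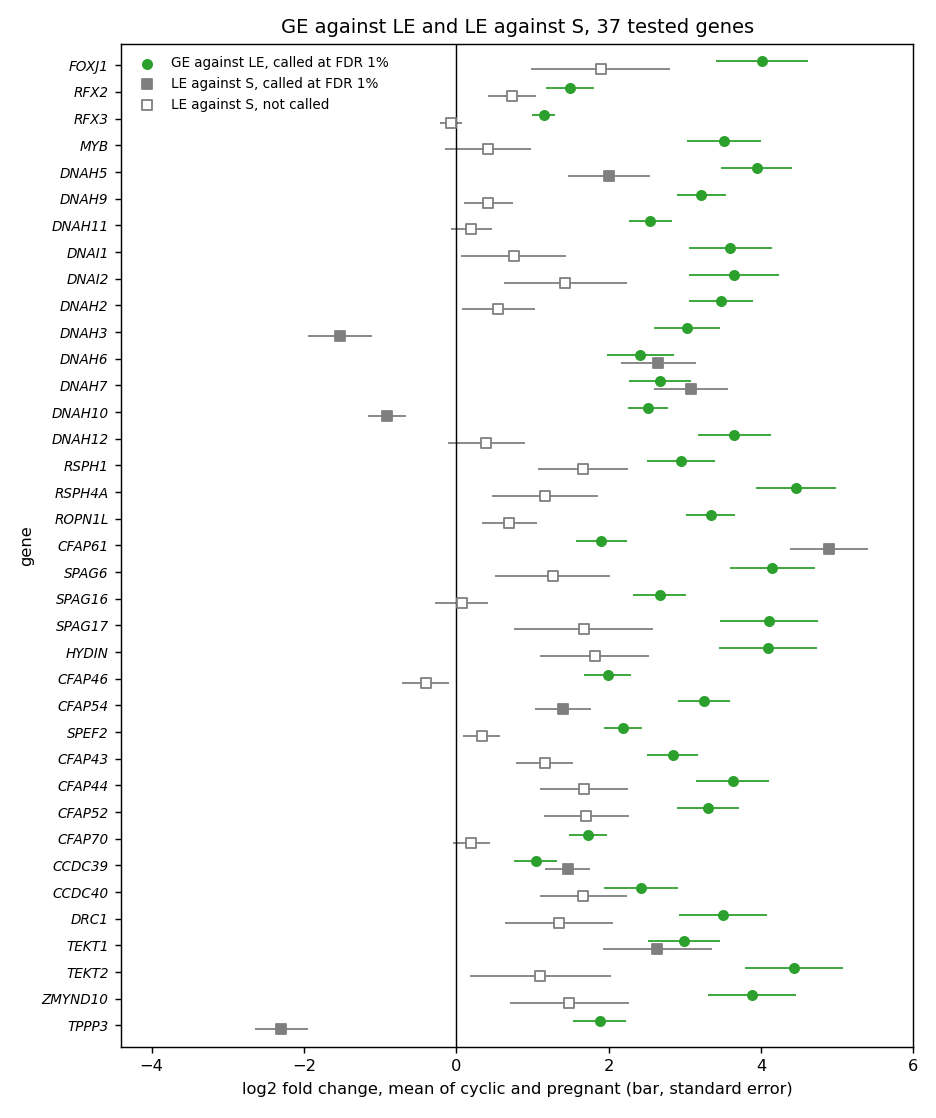
Differences between compartments on the log2 scale (mean of cyclic and pregnant, bar as standard error) for 37 tested genes, with circles for GE against LE and squares for LE against S, filled where called at a false discovery rate of 1%. All 37 circles lie right of 0, from 1.04 to 4.46, while the squares run from -2.30 for TPPP3 to 4.90 for CFAP61.

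Within cyclic gilts, 34 of 37 genes were higher in GE than in LE (11.0% of all genes were higher), all but CCDC39, CCDC40 and TPPP3, and 13 of the 15 genes of all 4 tables were. Within pregnant gilts, 35 of 37 were higher (9.46% of all), all but RFX2 and CCDC39, and 14 of the 15 were. The cyclic count fell to 20 without gilt C42, while calls over all 13887 genes, in either direction, fell from 4211 to 2628. Fitted differences were larger in pregnant than in cyclic gilts for 32 of 37 genes. The median of that difference was 0.88 on the log2 scale, against 0.03 for all genes tested. The 37 were read in the same libraries and moved together, so counts of direction, here and below, are not counts of independent genes. None passed the test of the difference between the effects (1.02% of all genes did so in either direction), and 1 of 37, SPAG6 at 2.45 (SE 1.15, adjusted p = 0.290), had an unadjusted p under 0.05, where 16.5% of all genes did. HYDIN stood at 2.16 (SE 1.22, adjusted p = 0.407) and FOXJ1 at 1.77 (SE 1.21, adjusted p = 0.514).

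Pregnant and cyclic gilts were then compared within each compartment, with calls made at a false discovery rate of 1% for LE, and elsewhere up to the largest unadjusted p so called, 0.000328. In GE none of 37 genes was called by the quasi-likelihood test (0.748% of all genes were), and 0 of 37 had an unadjusted p under 0.05, against 23.0% of all genes. Neither DESeq2 nor the robust GLM of edgeR called a gene there. The fitted difference was above 0 for 30 of 37, with a median of 0.23, against -0.008 for all genes tested. FOXJ1 came to 0.74 (SE 0.48, adjusted p = 0.393), TEKT1 to 0.72 (SE 0.35, adjusted p = 0.256) and CFAP52 to 0.59 (SE 0.27, adjusted p = 0.245). SPEF2 came to -0.52 (SE 0.50, adjusted p = 0.577) and MYB to -0.38 (SE 0.49, adjusted p = 0.693). The pregnant GE libraries held both ends of the range, as gilt P139 was the highest for 26 of 37 genes and gilt P43 the lowest for 24. Without gilt P139, FOXJ1 came to 0.09 and HYDIN to 0.01.

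In LE none of 23 genes was called (3.32% of all genes were), and 2 had an unadjusted p under 0.05, against 26.9% of all genes. These were DNAH11, higher at 0.70 (SE 0.29, adjusted p = 0.163), and DNAH6, lower at -0.86 (SE 0.37, adjusted p = 0.176). The fitted difference was below 0 for 19 of 23, with a median of -0.44, against -0.007 for all genes tested. For HYDIN the fitted difference was -0.94 (SE 1.06, adjusted p = 0.616), and without LE of gilt P139 it was -3.42 (adjusted p = 0.0322). The robust GLM, which gives less weight to such a library, called 2 genes lower, against 4.77% of all, HYDIN among them at -3.03, and DESeq2 called none.

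In S none of 15 genes was called (0.293% of all genes were), with 0 at an unadjusted p under 0.05 against 14.5% of all, and DESeq2 and the robust GLM called none. HYDIN came to 1.97 (SE 1.06, adjusted p = 0.430), with S of gilt P41 at 48.2 CPM against 1.40 to 8.68 CPM in the other pregnant gilts.

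**Figure D4:**
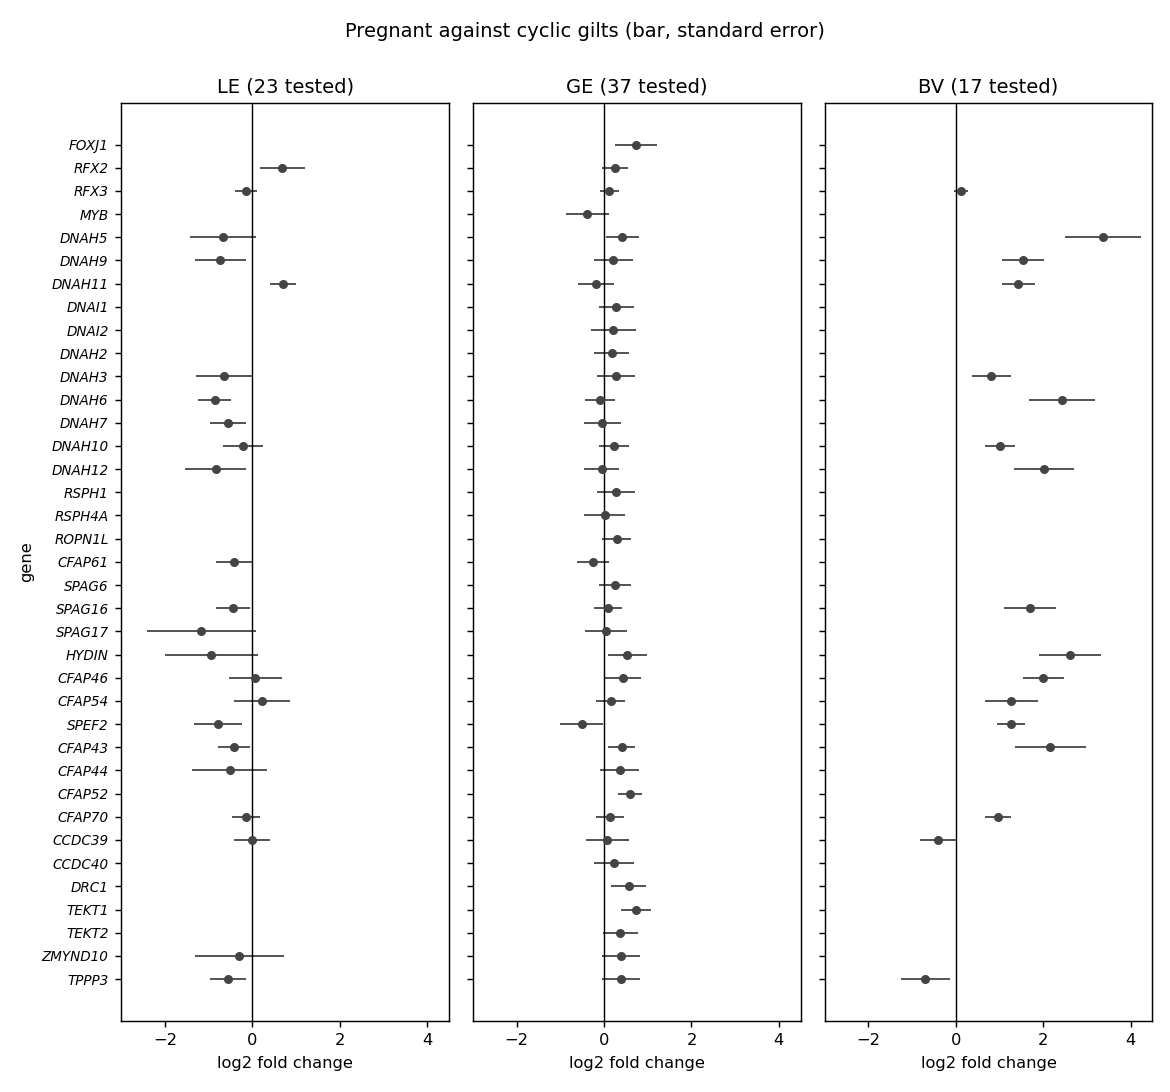
Pregnant against cyclic gilts on the log2 scale (point, fitted difference, bar, standard error) for the genes tested in LE, GE and BV. In GE the 37 points lie between -0.52 for SPEF2 and 0.74 for FOXJ1, in LE most of 23 points lie left of 0, and in BV 15 of 17 points lie right of 0, none of them called by the quasi-likelihood test.

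In BV the fitted differences had a median of 1.43, against 0.002 for all genes tested, and 15 of 17 were above 0. None of 17 genes was called by the quasi-likelihood test (1.86% of all genes were). Of the 17, 12 had an unadjusted p under 0.05, all higher in pregnant gilts, against 14.4% of all genes higher at that level. The 17 are the genes that the authors' filter kept in BV. A low gene, such as DNAH5, could pass that filter through its level in 1 group alone. The counts above 0 and under 0.05, and those that follow, may therefore be partly set by the filter. At a false discovery rate of 5%, 5 genes were higher, against 4.79% of all, DESeq2 called 5, against 4.73% of all, and the robust GLM called 9, against 5.73%. DNAH5 measured 3.58, 1.13, 0 and 2.34 CPM in cyclic and 19.2, 7.62, 4.06 and 45.8 CPM in pregnant BV. Gilts C40 and P43, at 3.58 and 4.06 CPM, had 12 and 11 counts, so their order rests on the scaling for library size. DNAH5 differed by 3.36 (SE 0.87, adjusted p = 0.0447). With 1 gilt left out in turn, that difference ran from 2.47 to 3.93 and its adjusted p from 0.0495 to 0.118. HYDIN measured 12.5, 2.26, 0.845 and 11.4 CPM in cyclic and 53.5, 19.8, 19.2 and 75.3 CPM in pregnant BV and differed by 2.61 (SE 0.70, adjusted p = 0.0489). CFAP46 measured 3.88, 2.54, 0.845 and 4.35 CPM in cyclic and 13.6, 8.76, 7.01 and 18.5 CPM in pregnant BV and differed by 2.0 (SE 0.47, adjusted p = 0.0344). SPEF2 and DNAH11 were the other 2 of the 5, at 1.26 (SE 0.33, adjusted p = 0.0444) and 1.43 (SE 0.38, adjusted p = 0.0480). FOXJ1 was not tested in BV. Its level was 1.52 to 6.03 CPM in pregnant and 0 to 1.19 CPM in cyclic libraries. The nearest of these, P41 and C40, held 4 counts each, so their order rests on the scaling for library size.

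The smallest fitted differences in BV, and the only ones below 0, were among 3 genes, RFX3, CCDC39 and TPPP3, at 0.13 (SE 0.16, adjusted p = 0.638), -0.41 (SE 0.42, adjusted p = 0.551) and -0.70 (SE 0.56, adjusted p = 0.447). Epithelial markers moved with the motile cilia genes in BV. Their 10 genes summed to 51.9, 3.67, 29.6 and 28.8 CPM in cyclic and 201, 174, 186 and 332 CPM in pregnant BV libraries, without overlap, and 2 of the 7 markers tested were called higher in pregnant BV. Smooth muscle markers went the other way, from 6186 to 18484 CPM in cyclic and 1202 to 7177 CPM in pregnant BV. Pregnant gilt P139 had both the highest epithelial sum and the highest motile cilia sum of BV, 610 CPM over 36 genes. Those 36 leave out RFX2, RFX3, MYB and TPPP3, which other cells are known to express. The part of the epithelial markers in the result was not tested.

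**Figure D5:**
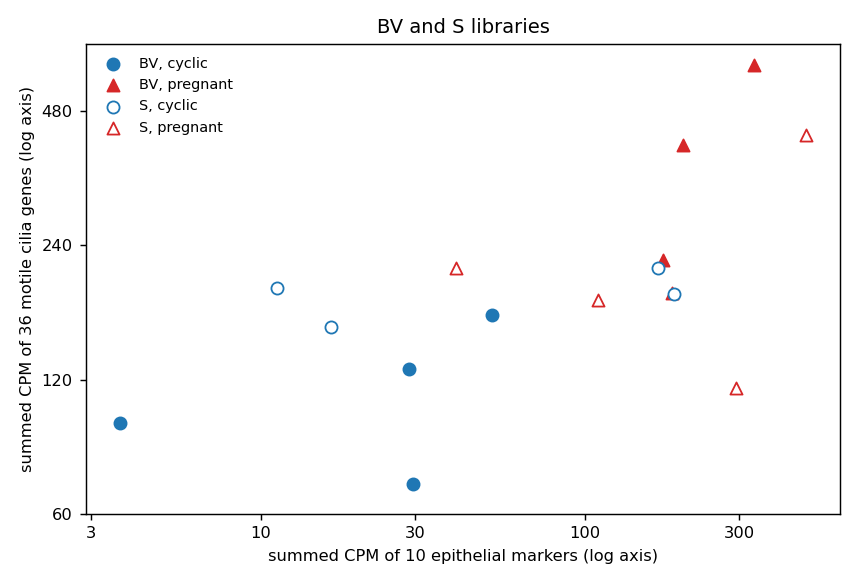
Summed CPM of 36 motile cilia genes against that of 10 epithelial markers (both log axes) in 8 BV (filled) and 8 S (open) libraries, with cyclic gilts as circles and pregnant gilts as triangles. The 4 pregnant BV libraries lie at 174 to 332 CPM of epithelial markers, and the 4 cyclic ones at 3.67 to 51.9 CPM.

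Levels varied between gilts within each group. In GE the sum of the 36 genes was 68.6% to 241% of the epithelial sum of the same library, lowest in pregnant gilt P43 and highest in pregnant gilt P139. In LE it was 6.51% to 22.3%, and gilt P139 was again the highest, followed by cyclic gilt C78 at 18.7%. Pregnant gilts P39, P41 and P43 had the lowest 3 shares in LE, at 7.29%, 6.80% and 6.51%. Among the GE libraries the order was shared by most genes, with cyclic gilt C128 highest for 7 and pregnant gilt P39 highest for 4 of the 37 beside the 26 of gilt P139. In LE, gilt C78 was highest for 12 and gilt P139 for 7 of 23 genes.

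The same direction was seen in motile cilia genes outside the 40. Of 102 further names, 85 were found and 82 tested, and 76 were higher in GE than in LE (15.5% of all genes were) and 1 was lower (25.9%), with a median of 2.62 on the log2 scale. The filtered table of GE held all 82, that of LE 35, that of BV 12 and that of S 20. Genes that entered through GE alone had to be high there, so the count of 76 is partly set by the filter. The lower gene was SPAG1, a dynein assembly factor, at -2.34, and KIF9, DNAAF2, DNAAF5, C13H21orf59 and CFAP69 were not called. Genes of the primary cilium and of intraflagellar transport, which nonmotile cilia share, had a smaller median difference, as 17 of 51 were higher and 3 lower in GE, against the same shares of all genes, with a median of 0.40. Between pregnant and cyclic gilts, 1 of 35 further motile cilia genes tested in LE was called, near the 3.32% of all genes. This was CFAP69, higher at 2.29 (SE 0.36, adjusted p = 0.00602), and in GE none of 82 was. In BV, where 1.86% of all genes were called, 1 of 12 was called, WDR63 (an inner arm intermediate chain), higher at 3.62, and of 48 primary cilium genes KIFAP3, a transport motor subunit, was lower at -0.99.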

How the data were processed

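Per the labels and the methods of the study, laser-captured tissue was turned into libraries with a kit for small amounts of RNA and sequenced in single reads. After trimming, the authors used Hisat2 for alignment to Sscrofa11.1 and nudup for duplicates, and deposited raw counts per gene from QuasR, with 1 table per compartment before and 1 after a filter on CPM. Versions, and whether counting used strand, are not given in the sources used here. Members, lists and tests were chosen with earlier results of these data known.

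From these counts, compartments were compared in 1 edgeR (4.0.16) quasi-likelihood fit of 31 libraries over 13887 genes in at least 1 filtered table, with TMM scaling, the gilt as a block and Benjamini-Hochberg adjustment at 1%. Same-numbered libraries come from the same gilt, which is the pairing. Pregnant and cyclic gilts, 8 different animals, were compared per compartment on the filtered tables without a block. Alternatives were DESeq2 (1.42.0), the robust GLM, other filters, RLE size factors, a rate of 5%, no replicate block, a joint fit and each gilt left out. No replicate pair agreed within counting noise (smallest chi-square per gene 6.40). Fits were tested on simulated data. The rule for named genes took FOXJ1, all called genes and the 10 of highest mean CPM in LE or GE. Values are printed per library for GE and LE and mostly as ranges for BV and S. Further lists of motile cilia, primary cilium and marker genes were used for counts and sums. Library totals of 2415216 to 7081556 counts limit the precision of genes under about 1 CPM. Promoter windows were read from RefSeq's Sscrofa11.1 sequence and annotation, and 1 of the 40 is not reported here. GE of gilt P41 was not analysed here.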

Additional observations from a re-analysis of the deposited data

Results flagged for a closer look

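Among groups of 4 libraries, the highest or lowest library stood far from the other 3 (Dixon's test at 95%) in 25 of 237 groups examined. Chance gives about 1 in 20 for a single group. The genes were read in the same libraries and moved together, so the 237 are not independent and the 25 cannot be judged by that rate. LE of pregnant gilt P139 accounted for 11 of the 25 and was the high library each time. It held 644 CPM in the summed level of the 40 genes, 77.2 CPM of HYDIN, 39.4 CPM of DNAH10, 24.3 CPM of DNAH12 and 23.8 CPM of CFAP44. The other genes set apart there were FOXJ1 at 10.5 CPM, DNAH2 at 8.18 CPM, SPAG17 at 7.16 CPM, DNAI1 and CFAP52 at 4.60 CPM each and SPAG6 at 2.56 CPM.

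S of pregnant gilt P41 accounted for 6, again as the high library. It held 48.2 CPM of HYDIN, 19.6 CPM of DNAH7, 14.0 CPM of CFAP44, 3.58 CPM each of DRC1 and TEKT1 and 2.93 CPM of DNAI1. LE of cyclic gilt C78 was high for DNAH12 at 32.6 CPM, DNAH11 at 23.1 CPM and CFAP52 at 3.40 CPM.

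The remaining 5 values were scattered. CFAP44 was high in BV of cyclic gilt C40 at 7.16 CPM and low in S of the same gilt at 0.279 CPM. CFAP70 was low in S of pregnant gilt P139 at 5.58 CPM. TPPP3 was high in BV of cyclic gilt C128 at 114 CPM and in BV of pregnant gilt P41 at 51.4 CPM.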

How the results depend on the processing

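The GE against LE count was 36 to 37 of 37 with each gilt left out and 37 under every other setting run. With each gilt left out it ran within cyclic gilts from 20 (without gilt C42) to 35. Within pregnant gilts it ran from 25 (without gilt P39) to 36, and a rate of 5% gave 37 in both. Calls over all 13887 genes, in either direction, moved too. They fell from 4211 to 2628 in cyclic gilts without gilt C42 and from 3476 to 1750 in pregnant gilts without gilt P39. At a rate of 5% they came to 5888 in cyclic and 5212 in pregnant gilts. For GE against S the count of motile cilia genes ran from 35 to 36. The LE against S count of 10 ran from 6 (without gilt P43) to 20 (without the stroma library of gilt P41) with libraries left out, came to 19 without gilt P41 and to 16 at a rate of 5%. For pregnant against cyclic gilts in BV, where the main count was 0, DESeq2 and a rate of 5% gave 5 and the robust GLM 9, and in LE the robust GLM gave 2. The ratio of GE to S in the summed level was 7.69 with 40 genes and 11.5 with 36. The causes were not tested.

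CCDC39 fell short of the threshold between GE and LE without gilt P39 (0.90) and without gilt P139 (0.98). No direction of a named gene was reversed, and 801 values of single genes kept their side of the threshold. Of the summary values, 181 stayed near the main value and 10 moved further. Near was set by a fixed ratio for counts, and it still covered a fall within cyclic gilts from 34 to 23 without gilt C128. Calls over all genes fell there from 4211 to 3543. Without the replicate block the counts were 37 for GE against LE, 30 within cyclic and 35 within pregnant gilts, 36 for GE against S and 9 for LE against S, and none passed for the difference between the pregnancy effects. No paired analysis was possible because pregnant and cyclic gilts are different animals in those comparisons. Low counts limited the precision for CCNO, MCIDAS and PIFO, and for low genes such as TEKT2 in LE, where a few counts set the value.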

Other observations

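The genes whose log2 CPM over the 15 LE and GE libraries was most like the mean of 37 tested motile cilia genes, among 12948 genes outside the 40, were UBXN10, LOC100511185, TCTE1, LOC100517025, MORN5, CDHR3, ANKFN1, C1H6orf183, PPP1R32 and FRMPD2. Likeness was ranked by correlation, and since GE and LE form separate clusters of libraries no coefficient is given. UBXN10 had a mean of 25.8 CPM in GE and 1.64 CPM in LE, and CDHR3, an airway cadherin-family gene of ciliated cells, 90.4 CPM and 6.31 CPM. Of the 10, TCTE1, MORN5 and CDHR3 were among the 82 further motile cilia genes ranked, as were 30 of the closest 100.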
